A study of Mus musculus with 16 samples.

Results

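The 150 genes described here were high in mouse embryonic fibroblasts (MEFs) and in all 4 iHAC1-iPS clones, and low in embryonic stem (ES) cells and in iHAC-free iPS lines. iPS cells are somatic cells returned to an ES-like state by a few transcription factors, here carried on a human artificial chromosome (HAC), a vector that stays apart from the host chromosomes. Where a gene had several probes, the probe with the highest mean over all 16 arrays stood for it. A gene was considered when that probe was well above background in MEFs and in all 4 iHAC1-iPS clones. Its MEF level also had to exceed the mean of those clones. Its score was the lowest of the MEF and iHAC1-iPS levels minus the highest of the 2 ES and 4 iHAC-free levels, on a log2 scale, and the 150 largest scores of 28095 gene names were taken. Of those names 6032 met the background and MEF criteria and 1142 had a score above 0. The scores ran from 4.52 for Arpp21 to 0.866 for Cyp2j6, which just entered. Fbxw8 (0.872), Grb10 (0.874), Lhfpl4 (0.882) and Fam101a (0.886) lay next inside the limit, and Cyp2j13 (0.866), Akt1 (0.864), Marcks (0.861), Add2 (0.854) and Nbea (0.854) just outside it. MEF, iHAC1-iPS, ES and iHAC-free values were therefore selected on and are given as a description. The arrays of iHAC2-iPS clones and of the line 20D17 entered only the mean that picked the probe of a gene. They took no part in the criteria and the score, which are what is called the choice below.

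Each of 16 lines was hybridised once to a 1-colour Agilent mouse array. The MEFs came from C57BL/6 embryos. The ES lines were B6ES (C57BL/6) and TT2 (C57BL/6 x CBA), and 20D17 was an iPS line (C57BL/6 x DBA) made with integrating retroviral vectors. The clones 1-A3, 1-B, 1-C3 and 1-D6 carried iHAC1, with copies of Klf4, c-Myc, Sox2 and Oct4 under the CAG promoter and an EGFP gene. The clones 2-B1, 2-C6, 2-E and 2-N carried iHAC2, which adds further Oct4 copies and a short hairpin RNA against p53. After loss of the HAC and sorting for EGFP-negative cells, these clones gave in the same order F-B1, F-C5, then F-E4 and F-N7, called iHAC-free iPS lines. After HAC transfer the MEFs were also treated with mimics of the microRNAs miR-294 and miR-295. HAC-bearing colonies were picked for ES-like shape and EGFP. Each group is thus a small set of single clones or lines, MEF and 20D17 are 1 array each, and fewer cells of a type cannot be told apart from less RNA per cell. ES and iPS cells grew on mitomycin-treated MEF feeders of ICR mice, and the part of feeder RNA in the values was not tested. MEFs, ES lines, 20D17 and iHAC1-iPS clones shared slides and a version of the image-extraction software, and iHAC2-iPS and iHAC-free lines shared others. These sets of arrays are called the first and the second session here, though scan dates were not used. Session and group cannot be told apart between them. In the lists of values below, clones and lines follow the order just given, with B6ES before TT2. A level is the log2 probe signal minus the 75th percentile of its array, and a difference of 1 is 2-fold.

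A fibroblast holds its identity through transcription factors that keep mesenchymal genes active, and through the matrix, adhesion and signalling proteins those genes encode. During reprogramming this programme has to be shut while the ES-cell network is switched on, and cells that carry the factors can stop between these states. MicroRNAs, short RNAs that pair through their seed (bases 2 to 8) with messenger RNAs and lower their output, belong to both states. The let-7 family is known from differentiated cells, where it opposes genes of early embryonic cells, and miR-125b, miR-9 and miR-128 are known from differentiated and neural tissue.

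Genome loci that harbour such microRNAs supplied the genes with the highest scores, so the mature sequences are shown. The array did not measure mature microRNAs, and nothing on their abundance follows from it. Capitals mark the seed, and no seed is shared among them (sequences from RefSeq, GRCm38.p6).
mmu-miR-128-3p: uCACAGUGaaccggucucuuu
mmu-miR-9-5p: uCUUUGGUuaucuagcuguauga
mmu-let-7c-5p: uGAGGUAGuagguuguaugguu
mmu-miR-99a-5p: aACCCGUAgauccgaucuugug
mmu-miR-125b-5p: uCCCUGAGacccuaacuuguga

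Mir128-2 lies within the RefSeq span of Arpp21, Mir9-2 within that of the long noncoding RNA C130071C03Rik, and Mir99a, Mirlet7c-1 and Mir125b-2 lie 40.5, 41.2 and 87.8 kb past the end of Mir99ahg, to which the array's 2810055G20Rik belongs. Of the 128 genes with a RefSeq name, 9 (7.03%) have a microRNA gene within their span. The share was 5.01% among 5250 named genes that met the background and MEF criteria, so a microRNA inside the gene is no common feature of the set.

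Arpp21, which encodes an RNA-binding phosphoprotein known from neurons, was at -0.25 in MEFs and at -0.86, -1.19, -2.61 and -1.59 in the iHAC1-iPS clones. It lay at -7.67 and -8.01 in the ES lines, at -8.01 in 20D17, at -7.57, -7.14, -7.70 and -7.22 in the iHAC-free lines and at -6.41, -5.21, -7.22 and -6.87 in the iHAC2-iPS clones. All of these 11 low values were not well above background, and the iHAC1-iPS clones stood far above every one. The iHAC1-iPS mean was therefore at least 17.5-fold higher than the ES mean, at least 13.5-fold higher than the iHAC-free mean and at least 9.14-fold higher than the iHAC2-iPS mean. Here and below such a bound sets the bright group against the dimmest signal that counted as well above background on each array of the dim group. It holds for the main processing only, and alternative processing gave smaller differences for some genes. For Arpp21 the values rest on a single probe. Its further probes, not well above background on every MEF and iHAC1-iPS array, gave iHAC1-iPS minus ES differences of 0.14 and 0.1.

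At the Mir99a locus 4 members lay within mm9 chr16:77470873-77691536: D130020G16Rik, ENSMUST00000068704, 8030498J20Rik and 2810055G20Rik. ENSMUST00000068704, an Ensembl transcript for which no RefSeq name was found, was at -1.34 in MEFs and at -0.86, -2.64, -1.57 and -1.43 in the iHAC1-iPS clones. In the ES lines it was at -7.63 and -7.31, in 20D17 at -6.85, in the iHAC-free lines at -7.57, -7.12, -7.61 and -7.25 and in the iHAC2-iPS clones at -6.43, -5.26, -7.21 and -6.90, none of them well above background. The iHAC1-iPS mean was at least 16.7-fold above the ES mean and at least 8.77-fold above the iHAC2-iPS mean, and only clone 1-A3 exceeded MEFs. 2810055G20Rik showed an exception among the arrays outside the score. It was at -2.48 in iHAC2-iPS clone 2-B1, above the lowest iHAC1-iPS clone (-3.99), and at -6.78, -5.33 and -6.82 in 2-C6, 2-E and 2-N. Its derived line F-B1 was at -7.58.

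At the Mir9-2 locus 2 members lay 5.76 kb apart at most, within mm9 chr13:83874894-83880650. C130071C03Rik was at -2.44 in MEFs and at -1.84, -3.48, -3.27 and -2.12 in the iHAC1-iPS clones, against -6.72 and -8.10 in the ES lines, neither well above background, a difference of at least 8.07-fold. It was above background in 1 of 4 iHAC2-iPS clones, 2-C6, at -3.97, and at -5.70 in 20D17. ENSMUST00000052354 was at -0.05 in MEFs, at 0.63, -1.39, -1.46 and 0.15 in the iHAC1-iPS clones, at -4.18 and -5.80 in the ES lines and at -4.85, -3.10, -6.27 and -6.99 in the iHAC2-iPS clones. Both transcripts were highest in 1-A3 and 1-D6 and lowest in 1-B and 1-C3. Of the 6 transcripts at these 2 loci, 5 were not above background on either ES array, and with those at their bounds the median difference of the iHAC1-iPS from the ES mean was at least 2.87 on the log2 scale. These transcripts form 1 of 8 functional groups into which 82 of the 150 genes were sorted by what they encode, a sorting made after their values were seen.

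**Figure D1:**
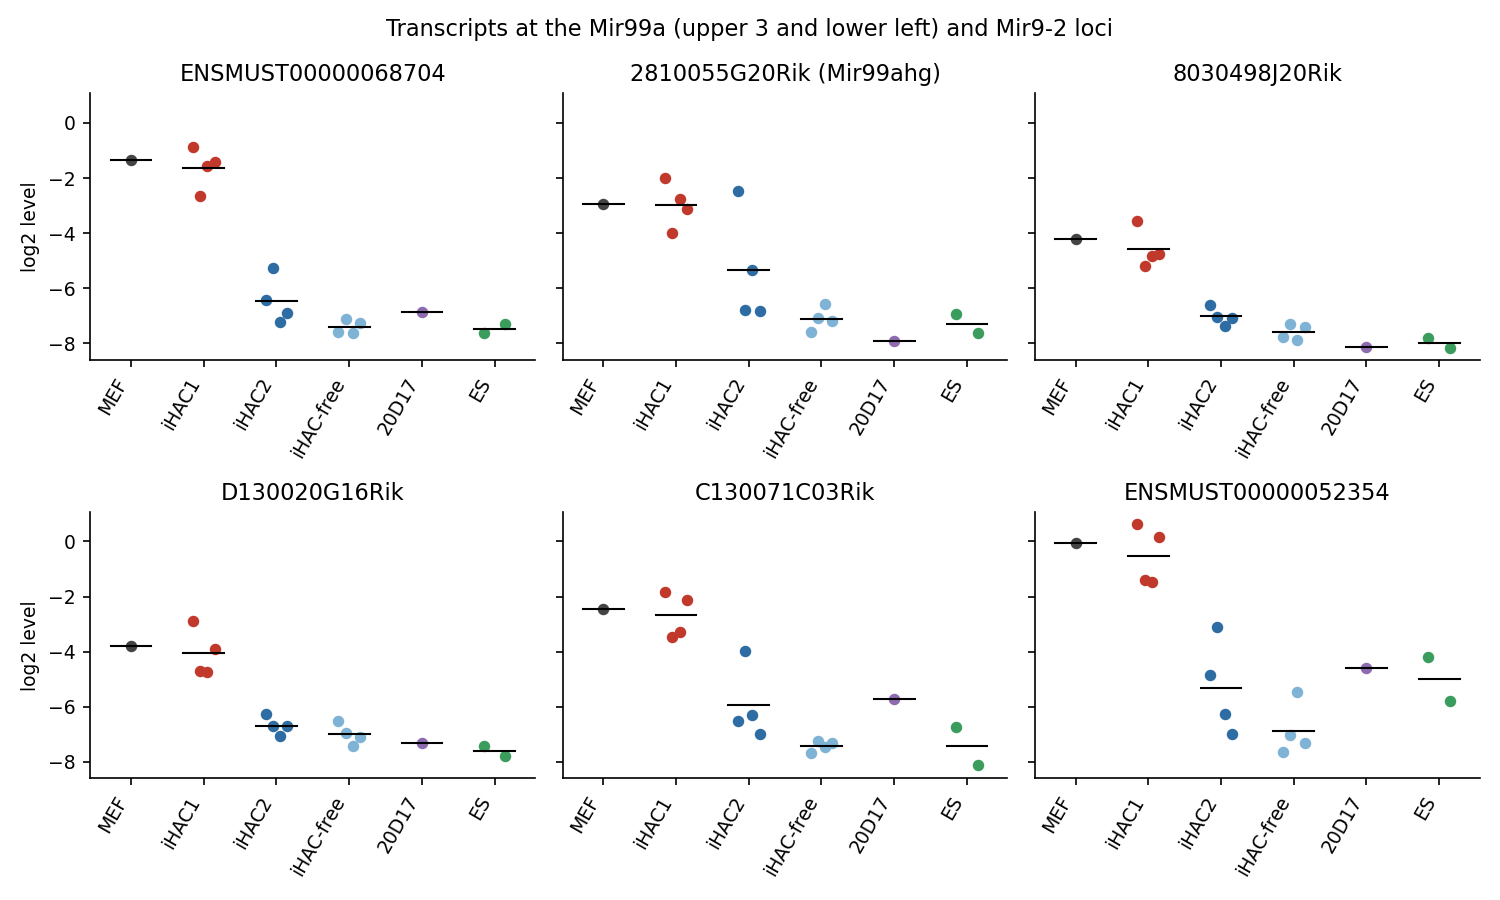
Levels (log2 signal minus the array's 75th percentile, y axis) of members at the microRNA loci on each array, 1 point an array, with arrays grouped by line type on the x axis and a line at each group's mean. MEF and iHAC1-iPS points lie above nearly all others, and the exception is 2810055G20Rik in 2-B1, at -2.48.

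**Figure D2:**
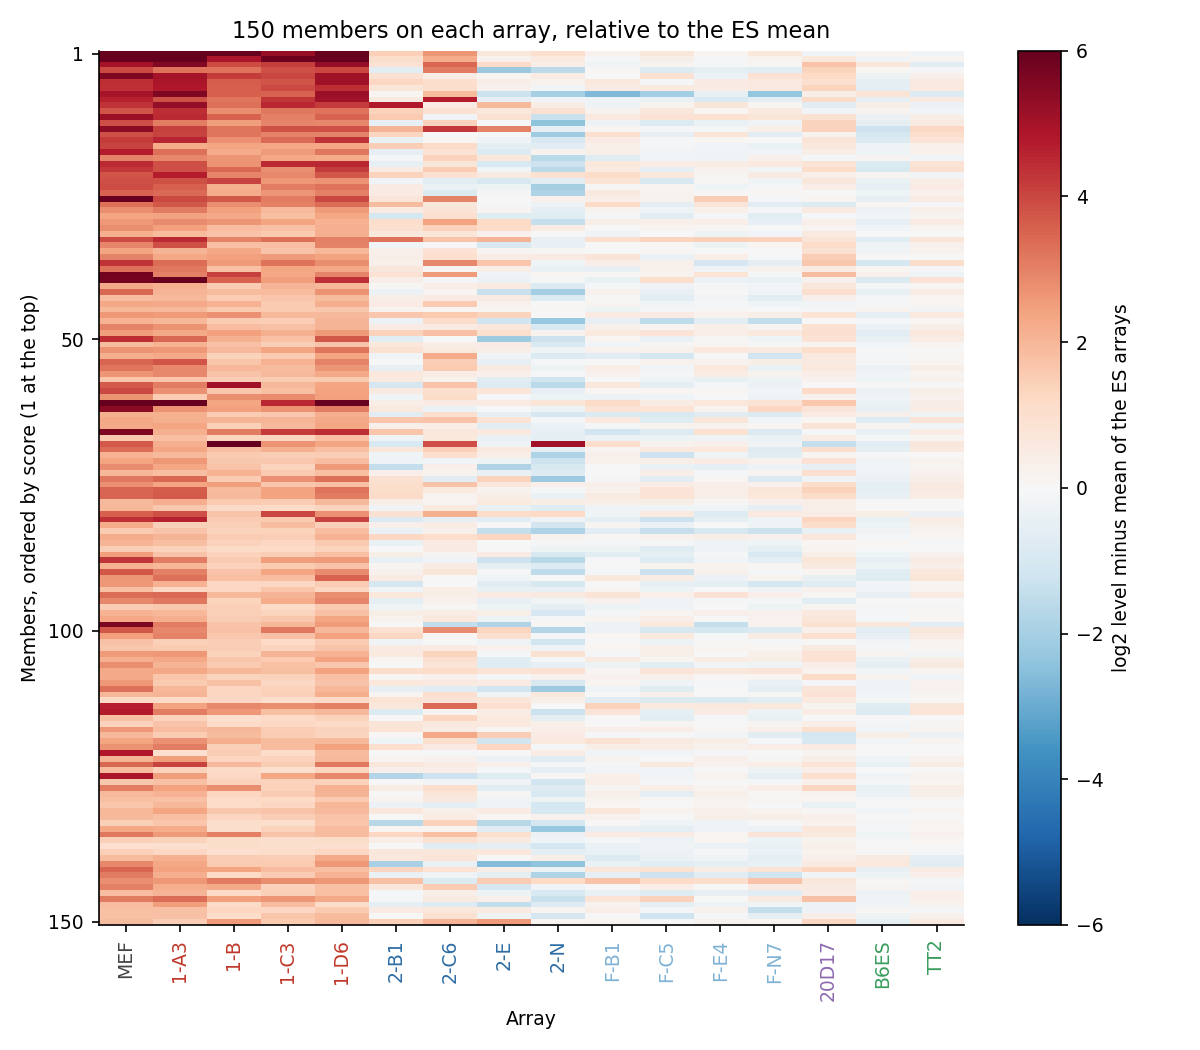
Each row is 1 of the 150 genes in order of score and each column 1 of the 16 arrays, coloured by the level minus the mean of the 2 ES arrays (log2, colour scale ending at 6 in either direction). MEF and iHAC1-iPS columns are high throughout because the genes were chosen so. The iHAC2-iPS columns differ from each other, with 2-C6 higher (median 0.60) and 2-N lower (median -0.40).

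The genes as a whole stood in the iHAC1-iPS clones near their fibroblast level. The iHAC1-iPS mean was a median of 72.6% of the MEF level (range 9.47 to 100, the upper end set by the choice), and 116 of 150 genes were at 50% or more, whereas the ES mean was at a median of 14.9%. On the log2 scale MEF exceeded the iHAC1-iPS mean by 0.00 to 3.40 with a median of 0.46, and for 81 genes by less than 0.5. With the 24 genes that were above background on neither ES array at their bounds, the median iHAC1-iPS minus ES difference was at least 2.04, and 2.14 as fitted. Against the mean of the ES lines the medians of the 150 genes were 2.75 in MEFs, 2.39 in 1-A3, 1.75 in 1-B, 1.80 in 1-C3 and 2.27 in 1-D6. In the lines that the choice did not use, they were 0.44 in 20D17, 0.34 in 2-B1, 0.60 in 2-C6, 0.01 in 2-E and -0.40 in 2-N. The iHAC-free lines lay at 0.11, -0.05, 0.04 and -0.09, B6ES at -0.19 and TT2 at 0.19. No iHAC2-iPS clone came near the iHAC1-iPS clones, and 20D17 lay within the range of the iHAC2-iPS clones. The median over all genes tested stayed between -0.25 and 0.15 on every array. By detection, 88 of the 150 probes were well above background on all iHAC2-iPS arrays and 25 on none, 109 on both ES arrays and 24 on neither, 101 on all iHAC-free arrays and 27 on none, and 133 in 20D17.

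**Figure D3:**
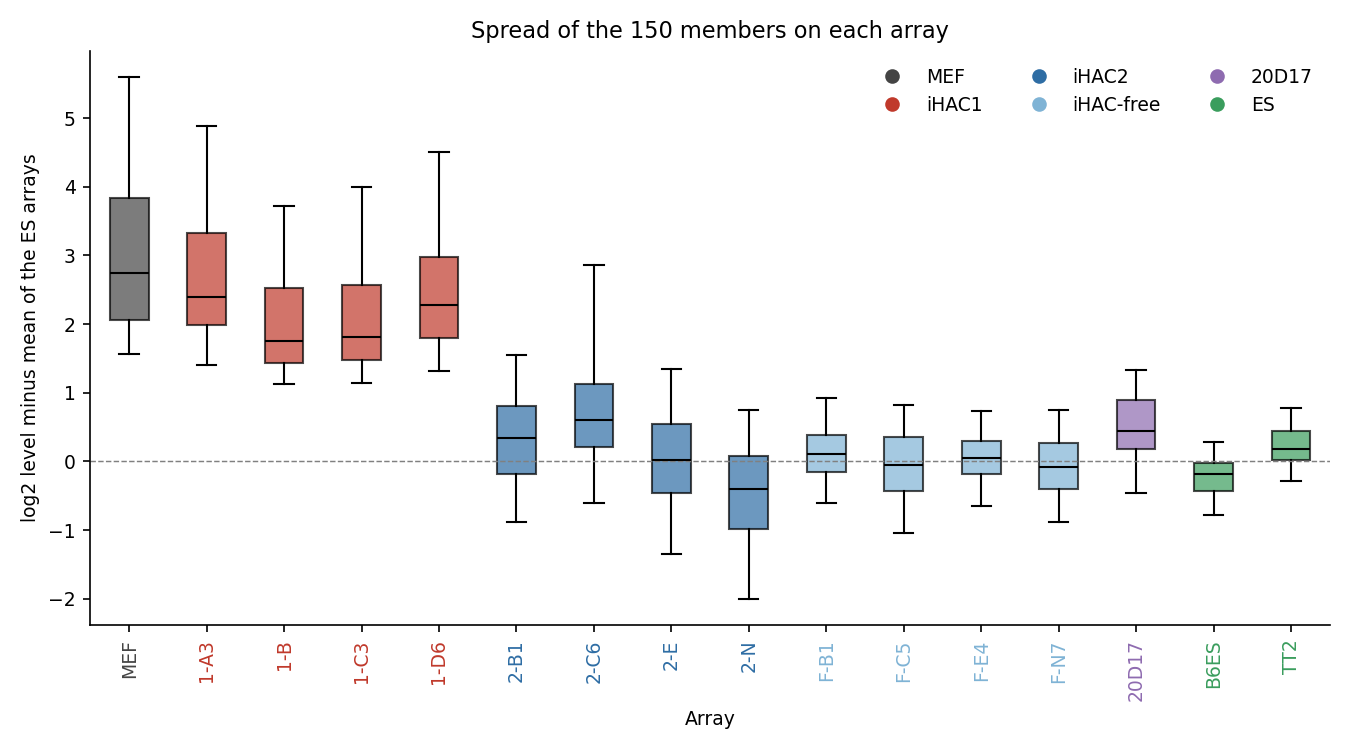
Distribution over the 150 genes of the level minus the ES mean (log2, y axis) on each of 16 arrays (x axis), with boxes for quartiles and whiskers from the 5th to the 95th percentile. The 4 iHAC1-iPS boxes have medians from 1.75 to 2.39. The iHAC2-iPS and 20D17 boxes, which played no part in the criteria and the score, have medians from -0.40 to 0.60.

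Because the choice fixes the high and low groups, each iHAC1-iPS array was also left out in turn. From the same probes, 150 genes were chosen again without it, and it was then looked at. The single MEF array was not left out, so how far the genes depend on it was not tested. 1-A3 lay above every ES and iHAC-free array for 150 of 150 newly chosen genes (38.2% of the genes that met the other criteria), 1-B for 140 (30.5%), 1-C3 for 148 (27.0%) and 1-D6 for 149 (41.5%). The median difference of the array left out from the ES mean was 2.47, 1.58, 1.77 and 2.34 respectively. The array left out took no part in the new criteria and score, but it had entered the mean over all arrays that picked each probe. The low side took part in the score, and the genes behind the percentages were not ranked for low values. The counts and the percentages are therefore not a like comparison. Clone 1-D6 shared its slide with the ES lines and 20D17, and the other clones shared theirs with MEFs.

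The label of fibroblast genes was compared with known markers. None of 15 fibroblast markers (Col1a1, Col1a2, Col3a1, Dcn, Lum, Postn, Thy1, Pdgfra, Pdgfrb, Twist1, Prrx1, Fbn1, Loxl1, Fap, Col6a1) was among the 150 genes. These markers were at a median of 48.6% of MEF level in iHAC1-iPS clones and 15.7% in ES lines, and 8 of 15 were higher in iHAC1-iPS clones than in ES lines (limma, Benjamini-Hochberg adjusted p under 0.05 and at least 2-fold), where 6.86% of all 31420 probes were. The log2 of their summed level was 8.50 in MEFs, 7.70 to 9.0 in iHAC1-iPS clones, 8.20 in 20D17, 6.69 to 8.28 in iHAC2-iPS clones, 7.41 to 8.34 in iHAC-free lines and 5.85 to 7.34 in ES lines. These sums overlapped between iHAC1-iPS, iHAC2-iPS and iHAC-free lines. Col1a1 and Col1a2 weighed heavily in the sums, as did Thy1 outside MEFs. Thy1 was lower in MEFs (3.55) than in the ES lines (3.96 and 5.41). All but 1 of the markers were above background on every array of the ES lines, which grew on feeders. The 150 genes are therefore named here by how they were chosen and not as fibroblast markers.

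ES-cell genes were not all on in the iHAC1-iPS clones. Of 14 ES-cell markers listed, Nanog and Fgf4 were not found by these names among the gene names of the array, so their levels are not given. Of 12 ES-cell markers measured, 9 were lower in iHAC1-iPS clones than in ES lines by the same fit (7.41% of probes were) and 1, Pou5f1 (Oct4), was higher, at 6.65, 6.57, 6.32 and 6.67 against 3.56 and 4.00. The vector carries Oct4, and the probe may read it. Dppa5a, a germ and ES cell RNA-binding protein, was at -1.73, 0.39, 3.22 and -1.25 in the iHAC1-iPS clones, at 8.96 and 8.36 in the ES lines and at 8.72, 7.68, 8.05 and 9.43 in the iHAC2-iPS clones. Esrrb, a nuclear receptor of the ES-cell network, was at -7.36, -4.40, -3.22 and -7.73, against 2.84 and 3.07 in the ES lines. The 2 clones with the highest medians of the 150 genes, 1-A3 and 1-D6, were the lowest in Dppa5a and Esrrb but not in every ES-cell marker, since Dppa3 was lowest in 1-B (-7.55) and Gbx2 highest in 1-D6 (0.09). The log2 summed level of the 12 markers, to which Pou5f1 contributed most, was 6.71, 6.75, 6.69 and 6.74 in the iHAC1-iPS clones, 8.90 to 9.28 in ES lines and 8.38 to 9.76 in iHAC2-iPS clones. 1-A3 and 1-D6 were lowest in the sum of 10 epithelial markers, whose log2 summed level was -0.01 in 1-A3, 1.66 in 1-D6, 4.48 in 1-B, 4.84 in 1-C3 and 4.47 in MEFs, against 6.37 to 7.16 in ES lines and 6.54 to 7.50 in iHAC2-iPS clones. Among these, Cdh1 (E-cadherin) was at -7.42, 1.39, 1.56 and -2.24 in the iHAC1-iPS clones and at 4.49 and 3.77 in the ES lines. With 4 clones this order is a description. Markers of other cell types gave log2 summed levels of -0.63 to 1.12 in iHAC1-iPS clones against 1.22 to 3.21 in ES lines for trophectoderm, 0.67 to 3.29 against 0.68 to 3.08 for endoderm, 5.84 to 6.40 against 5.60 to 6.18 for macrophages and -2.67 to -1.39 against -0.77 to -0.11 for endothelium. Their part in the values of the 150 genes was not tested.

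The clones differed in how far they held the set. 1-A3 was the highest clone for 87 of 150 genes and 1-D6 for 38, 1-B for 19 and 1-C3 for 6. The lowest was 1-B for 73 and 1-C3 for 56, 1-A3 for 11 and 1-D6 for 10. 58 genes were above their MEF level in 1-A3, 34 in 1-D6, 11 in 1-B and 5 in 1-C3. The range over the 4 clones had a median of 0.87, from 0.12 for Gpsm1 to 4.99 for Odz2. Odz2 (teneurin 2), a transmembrane protein of neuronal contacts, was at 0.96, -3.01, -4.04 and -2.17 in the clones and at -0.82 in MEFs, and it was not above background on any ES, iHAC2-iPS, iHAC-free or 20D17 array, a difference from ES lines of at least 11.7-fold. 2610017I09Rik, a long noncoding RNA, was at 1.61 in MEFs and at 1.47, -3.50, -1.34 and 0.35 in the clones, so that 1-A3 held nearly the MEF level while 1-B did not. Gpsm1, a G-protein signalling modulator, was at 3.95 in MEFs and at 3.89, 4.00, 3.88 and 3.94 in the clones, against 2.96 and 2.92 in the ES lines. For Gpsm1 each clone was thus close to the single MEF array.

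Transcription factors were the largest functional group. The 24 DNA-binding factors exceeded the ES mean in iHAC1-iPS clones by 1.15 to 4.19 (median 2.19), and the median in iHAC2-iPS clones against the same ES mean was 0.05. Every iHAC1-iPS clone was above every iHAC2-iPS clone for 21 of 24, as for 130 of the whole 150 and 13.9% of 21124 genes tested, with the iHAC1-iPS side chosen as high. Meis2, a homeodomain partner of Hox proteins, was at 3.32 in MEFs and at 3.74, 2.51, 2.91 and 3.37 in the iHAC1-iPS clones. It was at -1.62 and -0.49 in the ES lines, 0.27 in 20D17, -0.31, 0.01, -0.78 and -1.20 in the iHAC2-iPS clones and -0.58, -0.46, -0.61 and -0.50 in the iHAC-free lines. The clones thus held MEF levels of this gene, and no other line overlapped them. Its iHAC1-iPS mean was 3.70 ± 0.32 (SE, limma) above the iHAC2-iPS mean on the log2 scale.

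Foxc1, a forkhead factor of mesenchymal tissue, was at 1.74 in MEFs and at -0.07, 0.09, 0.02 and 0.03 in the iHAC1-iPS clones, less than MEFs but with little spread between clones. It lay at -2.62 and -1.98 in the ES lines, at -1.65 in 20D17, at -2.01, -2.37, -2.47 and -2.71 in the iHAC-free lines and at -0.83, -1.17, -2.89 and -2.94 in the iHAC2-iPS clones, where 2-B1 and 2-C6 were above the rest. Nfib, a nuclear factor I protein, was at 3.32 in MEFs and 1.91, 0.83, 1.14 and 1.76 in the iHAC1-iPS clones, against -1.69 and -1.13 in ES lines and -1.88, -0.53, -2.21 and -1.20 in iHAC2-iPS clones. Heyl, a repressor in the Notch pathway, was at -0.54 in MEFs and -0.92, -1.34, -2.0 and -0.58 in the iHAC1-iPS clones, against -5.75 and -3.82 in ES lines and -4.27, -3.26, -4.93 and -6.41 in iHAC2-iPS clones. Tshz3, a zinc-finger homeodomain factor, was at 0.31 in MEFs and 0.45, -0.51, 0.01 and 0.41 in the iHAC1-iPS clones, against -1.76 and -2.12 in ES lines and -1.65, -1.54, -2.55 and -2.30 in iHAC2-iPS clones. For each of these 4 genes the iHAC1-iPS clones did not overlap any ES, iHAC2-iPS, iHAC-free or 20D17 array. Other factors of the group were Nfix, Tbx15, Ebf2, Zeb1, Prdm8, Arnt2, Irf2, Trps1, Zfp521 and Plagl1. On a list of 50 mesenchymal transcription factors, 7 were members (Zeb1, Foxc1, Tbx15, Nfix, Nfib, Tshz3, Heyl) and so were chosen as high. Of the other 43, 4 rose (9.3%, against 6.86% of all probes) and 2 fell in iHAC1-iPS clones against ES lines by limma, and none of the 50 rose or fell in iHAC2-iPS clones against ES lines.

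**Figure D4:**
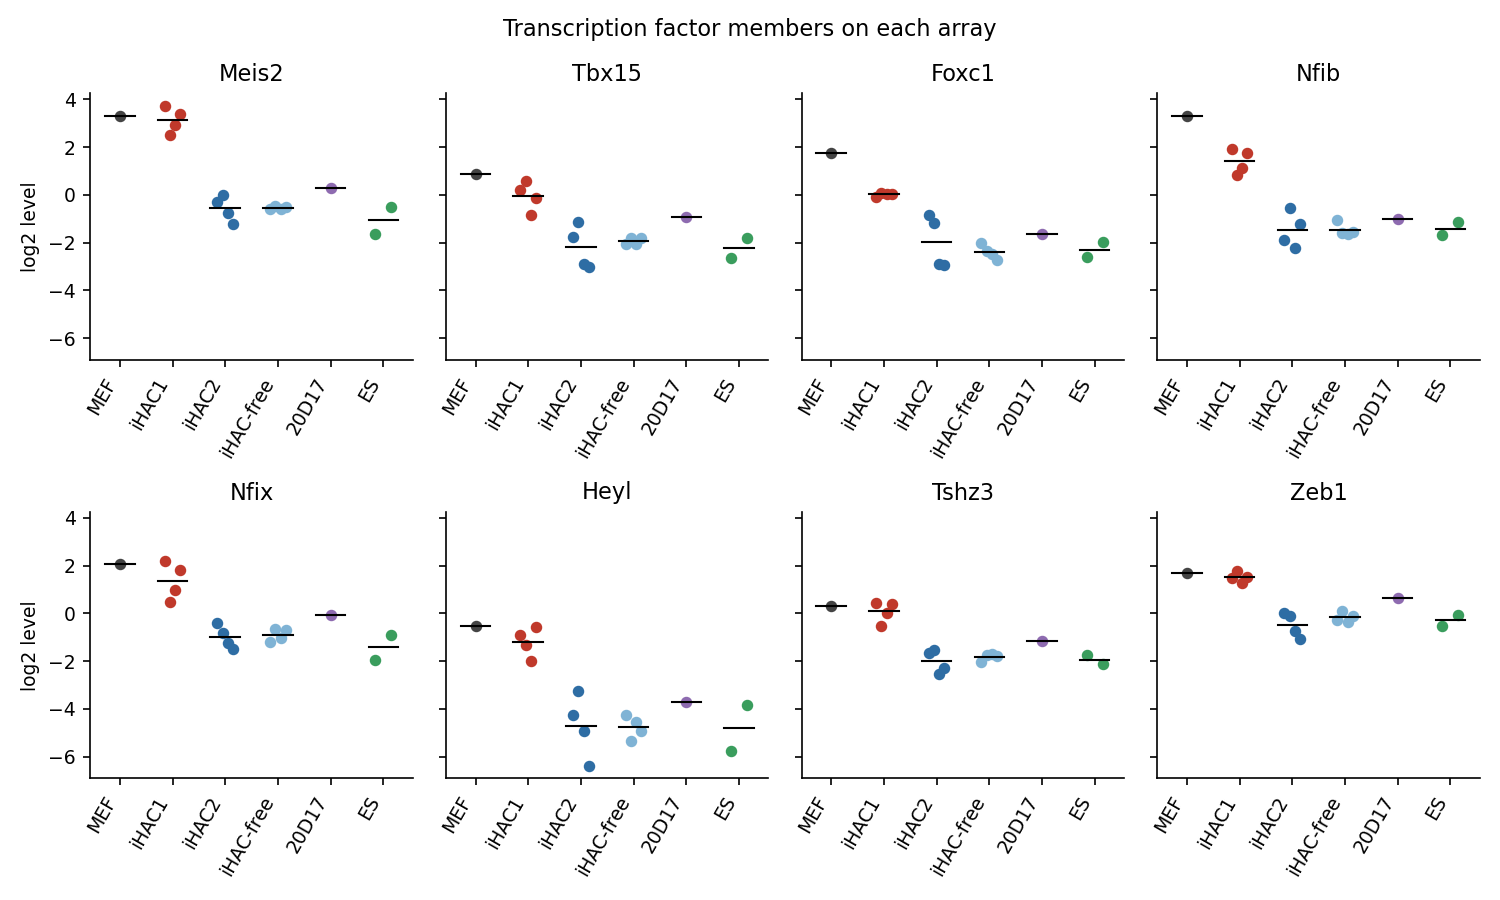
Levels (log2 signal minus the array's 75th percentile) of 8 transcription factors on every array, 1 point an array, with a line at each group's mean. MEF and iHAC1-iPS points lie above all others, and the iHAC2-iPS points are spread around the ES and iHAC-free points, for Meis2 between -1.20 and 0.01.

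The promoter of Foxc1 is shown because the gene was among the most even of the set over the 4 clones and holds a GC box, as 68 of 95 member windows do. It is the 250 bases before the start site, GRCm38.p6 chr13:31806396-31806645, plus strand, from RefSeq, with the GC box GGGCGG in capitals, the motif bound by Sp1-type factors.
Foxc1: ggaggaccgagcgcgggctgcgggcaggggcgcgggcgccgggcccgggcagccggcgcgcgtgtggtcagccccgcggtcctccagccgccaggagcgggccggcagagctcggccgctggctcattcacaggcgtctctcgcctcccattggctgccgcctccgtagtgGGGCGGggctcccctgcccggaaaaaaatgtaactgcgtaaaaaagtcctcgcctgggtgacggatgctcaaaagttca

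A promoter window of this length was found for 95 members and searched on both strands. The GC box stood in 71.6% of them and in 71.1% of the 4125 windows of genes that met the background and MEF criteria, against 38.2% of all 27025 windows. The AP-1 motif TGANTCA was in 5.26% of member windows and 7.49% of those of genes meeting the criteria, the TEAD motif GGAATG in 17.9% and 16.1%, and the CArG box in 3.16% and 2.01%. The E-box CAGGTG, read by Snail and Zeb factors, was in 24.2% and 21.3%, the TATA box TATAAA in 12.6% and 9.99% and the octamer ATGCAAAT in 2.11% and 1.82%. Member promoters thus held these letters about as often as other genes above background in MEFs and iHAC1-iPS clones, and a match is no evidence of binding.

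Among 11 cofactors and chromatin proteins the median iHAC1-iPS minus ES difference was 2.04. Eya2, a coactivator and phosphatase that works with sine oculis-type homeodomain proteins, was at -1.60 in MEFs and at -3.11, 0.73, -2.62 and -2.93 in the iHAC1-iPS clones, so 1-B was above MEFs and apart from the other clones. It was also high in 2 of 4 iHAC2-iPS clones, at -6.23, -1.41, -5.61 and -0.26, and its iHAC1-iPS and iHAC2-iPS arrays overlapped (difference 1.40 ± 1.26, SE). Kctd1, a corepressor of AP-2 factors, was at 1.69 in MEFs, at 1.09, 0.77, 0.81 and 1.18 in the iHAC1-iPS clones, at -0.34 and -0.78 in ES lines, at -0.46, -0.26, -0.70 and -0.32 in iHAC2-iPS clones and at 0.60 in 20D17. 20D17 was thus above every iHAC2-iPS clone and below every iHAC1-iPS clone. Others of the group were Tet3, an enzyme that oxidises methylated cytosine, and Smarca2, a chromatin remodelling ATPase.

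The 6 matrix and matrix-associated genes had a median difference from ES lines of 2.51 in iHAC1-iPS clones and of 0.30 in iHAC2-iPS clones. Mfap2, a microfibril protein, was at 4.33 in MEFs and at 4.54, 2.80, 3.27 and 3.97 in the iHAC1-iPS clones, against 0.40 and 1.31 in ES lines, 1.97 in 20D17 and 2.01, 1.07, 1.25 and 0.45 in iHAC2-iPS clones. Fbn2, the fibrillin of embryonic microfibrils, was at 2.35 in MEFs, at -0.39, -0.60, -0.38 and 0.00 in the iHAC1-iPS clones and at -2.47, -3.43, -3.07 and -3.36 in the iHAC2-iPS clones. Mfap2 was thus near the MEF level in 1-A3 and 1-D6, whereas Fbn2 was below it in all 4 clones. Col11a1, a chain of cartilage collagen XI, was at 2.01 in MEFs, at 2.62, 0.50, 0.10 and 1.71 in the iHAC1-iPS clones and at -0.77, -0.96, -1.15 and -1.50 in the iHAC2-iPS clones. Fstl1, a secreted binding protein of BMP-type ligands, was at 5.61 in MEFs, at 5.37, 5.57, 5.23 and 5.66 in the iHAC1-iPS clones, at 2.49 and 3.72 in ES lines, at 4.06 in 20D17 and at 4.49, 4.85, 4.06 and 3.30 in iHAC2-iPS clones. It held nearly the MEF level in every iHAC1-iPS clone, and 2-B1, 2-C6 and 2-E lay between these and the ES lines while 2-N was below TT2.

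Of the whole families these genes belong to, more than the members rose in iHAC1-iPS clones against ES lines. By limma with the calls above, 15 of 29 collagens and collagen-processing enzymes that were not members rose and none fell, and 12 of 47 such matrix glycoproteins and proteoglycans rose and none fell. Matrix proteases and their inhibitors gave 9 higher and 2 lower of 36, adhesion, caveola and surface genes 10 and 4 of 56, receptors 7 and 1 of 39, and growth factors, cytokines and their binding proteins without Fstl1 4 and 2 of 60. Contractile and actin genes gave 1 and 1 of 54, targets of YAP, TEAD and SRF 1 and 0 of 24, AP-1 and immediate early genes 0 and 3 of 20, cell-cycle inhibitors and p53 pathway genes 3 and 1 of 19, and lysosome and detoxification genes 4 and 3 of 30. The contractile and AP-1 genes, prominent in cultured fibroblasts, were thus not called higher beyond the 6.86% of all probes.

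The 10 cell-surface adhesion genes had a median difference from ES lines of 2.92 in iHAC1-iPS clones (at least 2.74 with the 3 genes above background on neither ES array at their bounds) and -0.14 in iHAC2-iPS clones. For 7 of 10 the 2 groups did not overlap, against 130 of the whole 150 and 13.9% of all genes tested. 5 were protocadherins of the beta cluster on chromosome 18, Pcdhb6, Pcdhb16, Pcdhb17, Pcdhb20 and Pcdhb21, single-exon genes whose products mediate recognition between cells. These genes are near copies of each other. The closest of 105 probe pairs, Pcdhb6 with Pcdhb5, matched at 39 of 60 bases. How well each probe matches the transcripts of the other genes was not tested, so signal from them cannot be told apart. Pcdhb20 was at -1.01 in MEFs, at -2.25, -3.13, -2.56 and -2.49 in the iHAC1-iPS clones, at -7.62 and -5.10 in ES lines and at -4.33, -2.13, -3.40 and -6.83 in iHAC2-iPS clones, where 2-C6 was above all iHAC1-iPS clones. Of the 22 beta protocadherins, 8 were well above background on all 4 iHAC1-iPS arrays. Pcdhb3, Pcdhb4 and Pcdhb7 were at -3.60, -2.80 and -2.43 in MEFs but not above background in any iHAC1-iPS clone (means -6.57, -6.36 and -6.0), so the cluster was not held at its MEF level as a whole.

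Genes best known from the nervous system, in neurons or glia (Syt1, Elavl4, Gabrb2, Rtn1, Arpp21, Mlc1, Gpm6b) had a median difference from ES lines of 2.40 in iHAC1-iPS clones and -0.37 in iHAC2-iPS clones. All 7 were higher on every iHAC1-iPS array than on every iHAC2-iPS array, as were 130 of the whole 150 and 13.9% of all genes tested. They were also high in MEFs, as the choice required. The log2 summed level of 7 neural progenitor and neuron markers that were not members was 4.92 in MEFs, 3.45 to 4.01 in iHAC1-iPS clones, 3.63 to 3.84 in ES lines and 2.01 to 3.52 in iHAC2-iPS clones, with overlap between iHAC1-iPS clones and ES lines, though 4 of the 7 were called higher in iHAC1-iPS clones than in ES lines.

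Among cytoskeleton and signalling genes, Limch1, an activator of non-muscle myosin, was at 0.16 in MEFs, at -0.53, -0.52, 0.08 and 0.21 in the iHAC1-iPS clones, at -3.68 and -3.89 in ES lines and at -4.46, -0.65, -6.03 and -5.34 in iHAC2-iPS clones. Only 2-C6 came near the iHAC1-iPS clones. Nedd9, an adaptor of focal adhesions, was at -0.97 in MEFs, at -1.60, -2.74, -0.98 and -0.94 in the iHAC1-iPS clones and at -6.27 and -4.62 in ES lines, and it was above background in none of the iHAC2-iPS clones, a difference of at least 9.01-fold. Rgs8, a regulator of G-protein signalling, was at 0.00 in MEFs and -0.59, 1.39, -1.72 and -1.27 in the iHAC1-iPS clones, with 1-B highest, against -3.68 and -3.64 in ES lines. Grb10, an adaptor that restrains insulin signalling and is imprinted, was at 5.24 in MEFs, at 5.23, 4.78, 4.73 and 5.03 in the iHAC1-iPS clones, at 3.58 and 3.36 in ES lines and at 3.96, 4.12, 4.02 and 3.62 in iHAC2-iPS clones. Over the 13 signalling genes the median difference from ES lines was 1.57 in iHAC1-iPS clones and 0.06 in iHAC2-iPS clones, and over 5 cytoskeleton genes 1.76 and -0.26.

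Whether clones made with the second vector also held these genes was the comparison left to the arrays outside the criteria and the score. Against the ES lines, none of the 150 genes was called higher in iHAC2-iPS clones by limma (3.47% of all probes were), and 13 were higher at an unadjusted p under 0.05. 1 was called lower (3.26% of probes were), and 4 were lower at an unadjusted p under 0.05. Without clone 2-N 9 of the genes were called higher and none lower, and without 2-C6 1 was higher and 5 lower. For unadjusted counts and counts with an array left out, here and below, no share of all probes is given. They are a description and were not compared with other genes. The median difference of the 150 genes was 0.13, against 0.05 for all probes, the ES side having been chosen as low.

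Within the second session, iHAC2-iPS clones were set against the iHAC-free lines derived from them. Zfp560, a zinc-finger gene, was the only member called higher in iHAC2-iPS clones (0.216% of probes were) and none was called lower (0.544% were), with 18 higher and 5 lower at an unadjusted p under 0.05 by limma. Zfp560 was at -0.62, -0.66, -0.70 and -1.09 in the iHAC2-iPS clones and at -2.06, -2.28, -2.30 and -2.12 in the iHAC-free lines, a difference of 1.42 ± 0.13 (SE, limma), with the iHAC-free side chosen as low. All iHAC1-iPS clones (-0.27, -0.22, -0.38 and -0.27), MEFs (-0.24) and 20D17 (-0.84) were likewise above the iHAC-free lines, and the ES lines lay at -1.49 and -1.39. These values rest on a single probe. Another Zfp560 probe, also well above background in MEFs and all iHAC1-iPS clones, gave an iHAC1-iPS minus ES difference of only 0.26. On it the high and low arrays of the choice overlapped, and its difference between iHAC2-iPS clones and iHAC-free lines is not given here. Without 2-N 6 genes were called higher, and without 2-C6 1 higher and 2 lower, with no share of all probes given. The median difference of the 150 genes was 0.16, against 0.05 for all probes.

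The iHAC1-iPS clones exceeded the iHAC2-iPS clones for most of the genes, with the iHAC1-iPS side chosen as high. By limma 137 of 150 were called higher in iHAC1-iPS clones (8.64% of all probes were) and none lower (11.3% of probes were, and no member at an unadjusted p under 0.05), with a median difference of 1.90 against -0.05 for all probes. For 130 genes every iHAC1-iPS array was above every iHAC2-iPS array, as for 13.9% of 21124 genes tested. For 25 genes no iHAC2-iPS array was above background, and with these at their bounds the median difference was at least 1.81. Among these, the iHAC1-iPS mean exceeded the iHAC2-iPS bound by at least 9.14-fold for Arpp21 and at least 6.46-fold for Odz2. These bounds hold for the main processing only, since over 16 alternatives the log2 differences were as low as 1.95 and 1.65. Limch1, above background in 1 iHAC2-iPS clone, differed by 3.93 ± 0.87 (log2, SE). At the other end stood Cyp2j6, a cytochrome P450, whose iHAC1-iPS clones (-2.07, -0.96, -1.95 and -1.60) overlapped the iHAC2-iPS clones (-2.10, -1.51, -0.98 and -3.42). Against ES lines, within the first session, 142 of the 150 were called higher in iHAC1-iPS clones, which the choice itself produces, and none lower.

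**Figure D5:**
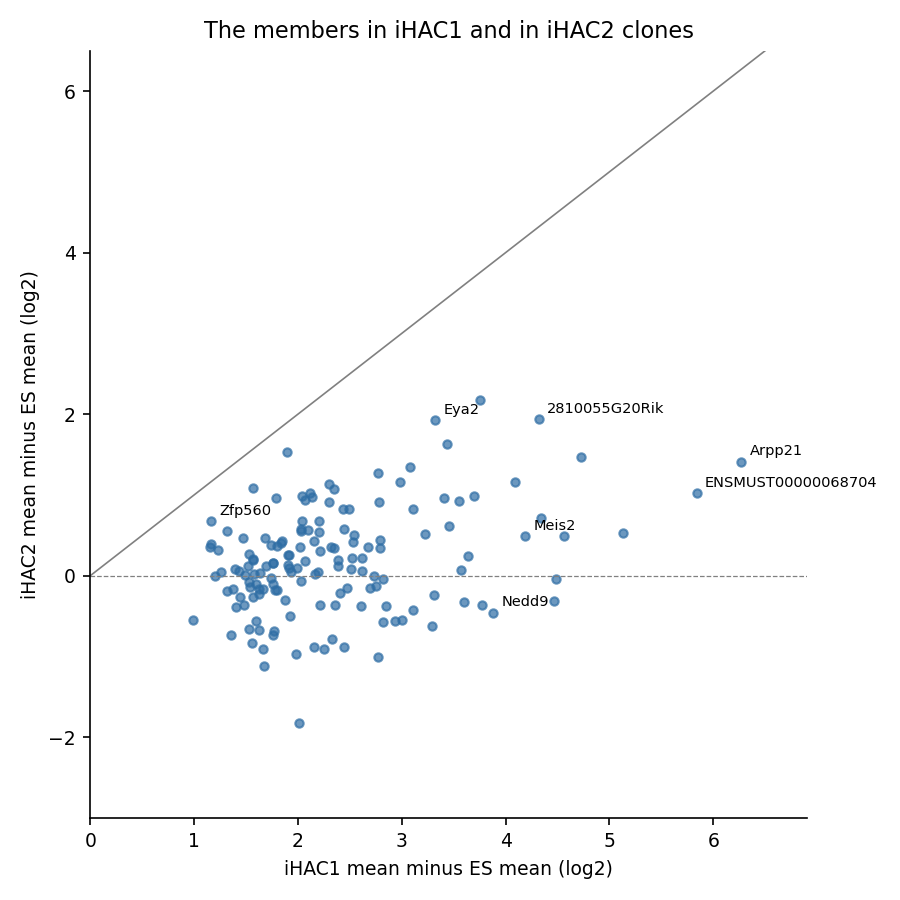
For each of the 150 genes, the mean of the iHAC2-iPS clones minus the ES mean (y axis) against the mean of the iHAC1-iPS clones minus the ES mean (x axis), both log2, with a solid line where both are equal. The x values were selected to be high, and for the 24 genes above background on neither ES array, Arpp21 among them, the plotted difference is set against background signal and is no measured fold. The points lie below the solid line, and the y values lie around 0, with a median of 0.13. Both axes share the ES arrays, so no correlation is given.

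The iHAC2-iPS clones differed among themselves. 2-C6 was above every ES and iHAC-free array for 95 of the 150 genes (23.5% of all genes tested were), 2-B1 for 69 (32.1%), 2-E for 41 (28.3%) and 2-N for 13 (27.6%). The ES and iHAC-free side was chosen as low for the 150 genes but not for all genes, so these shares are not a like comparison. Only 5 genes, Acat1, Barx1, Stambpl1, Zfp560 and Nat14, were above on all 4 clones, as were 4.73% of all genes. Without 2-N this count was 29, and without 2-E 9, with no share of all genes given for either. Acat1, a mitochondrial enzyme of ketone body and isoleucine breakdown, was at 1.99 in MEFs, at 0.18, 0.62, 0.32 and -0.32 in iHAC2-iPS clones, at -0.82, -0.61, -0.70 and -0.77 in iHAC-free lines and at -0.94 and -0.63 in ES lines. The clones were above both, though by little in 2-N, and below the iHAC1-iPS clones (1.66, 1.06, 0.96 and 1.34). Barx1, a homeobox gene of stomach and jaw mesenchyme, was at -3.57, -2.35, -3.37 and -3.28 in iHAC2-iPS clones and at -4.13 and -4.84 in ES lines.

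Clone 2-C6 reached the lowest iHAC1-iPS clone for 18 genes, among them 2810030E01Rik, Pcdhb20, Pcdhb6, Pcdhb21, Vgll4, Trps1, Eya2, Barx1, Wif1, Smarca2 and Bad, while 2-B1 did so for 2 (2810055G20Rik and Prdm8), 2-E for 2 and 2-N for 1 (Eya2). In the iHAC-free lines derived from each clone, none of these genes was above the lowest iHAC1-iPS clone, as the choice required. 2810030E01Rik was at -2.21 in MEFs, at -3.04, -3.62, -2.54 and -1.82 in the iHAC1-iPS clones and at -6.30, -2.11, -7.31 and -7.02 in the iHAC2-iPS clones, and the derived line F-C5 was at -7.23. Over the 150 genes the median of the clone minus its derived line was 0.29 for 2-B1, 0.69 for 2-C6, -0.08 for 2-E and -0.38 for 2-N. Fibroblast markers did not follow this order, since their log2 summed level was 8.28 in 2-B1, 7.27 in 2-C6, 7.59 in 2-E and 6.69 in 2-N. 2-N had the highest ES-cell marker sum of these clones, 9.76, and 2-E the lowest, 8.38, next to 8.40 in 2-C6 and 8.93 in 2-B1.

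The choice set the high and low sides apart, so an array outside it can lie between them for that reason alone. Such an array still entered the mean over all arrays that picked the probe of a gene. By its median over the 150 genes, 20D17, the retroviral iPS line, lay within the range of the iHAC2-iPS clones (0.44, against -0.40 to 0.60). It was above every ES and iHAC-free array for 86 of 150 genes (18.3% of all genes tested were, and the low side was chosen as low) and below every iHAC1-iPS array for 150 of 150 (36.0%, with the iHAC1-iPS side chosen as high). The comparison of iHAC2-iPS clones with 20D17 used neither side of the choice: no member was called higher (3.48% of probes were) and 1 lower (2.22% were), Kctd1, by -1.04 ± 0.24 (SE, limma, Benjamini-Hochberg adjusted p = 0.0319), a call lost in 3 of 12 alternative settings. At an unadjusted p under 0.05, 5 were higher and 14 lower, and the median difference was -0.40 against 0.08 for all probes. 20D17 is 1 array from the other session, its spread was taken to be that of the other groups, and this count ran from 0 to 9 when single iHAC2-iPS clones were left out, with 9 without 2-C6 and 0 without 2-E.

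A second probe bore on the choice of 1 probe a gene. 77 of the genes had 127 further probes, of which 73, for 56 genes, were well above background in MEFs and all iHAC1-iPS clones. Of those 73, 71 were higher in iHAC1-iPS clones than in ES lines on average, 61 by at least 2-fold, and 63 without overlap, with a median difference of 1.78. These probes read the same RNA samples and are no replicates. Further probes that did not pass this limit of detection, those of Arpp21 among them, are outside these counts.

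The genes were spread over the chromosomes but 14 (9.33%) were X-linked, where 3.15% of the 6032 genes meeting the criteria were. Chromosome 18 held 10 (6.67% against 2.70%), 5 of them the protocadherins, and chromosome 13 held 10 (6.67% against 3.60%). The X-linked members (among them Gpm6b, AK080472, Msl3, Efnb1, Tspan6, Tmem35, Magee1, Cxx1b, Mageh1, Sh3bgrl, Mid2, B630019K06Rik and Zxdb) exceeded the ES mean in iHAC1-iPS clones by 1.15 to 3.22 with a median of 1.81. The median difference of 760 X-linked genes tested from the ES mean was 0.07, 0.09, 0.17 and -0.06 in the 4 clones. Those genes were not chosen as high, so this is not a like comparison with the members, and the cause of the X-linked share was not tested. Xist, the noncoding RNA of X inactivation, was at 0.27, 2.56, 0.25 and 1.84 in the iHAC1-iPS clones and 1.11 in MEFs, at -1.96 and -1.05 in the ES lines, -1.10 in 20D17, -0.14, -1.36, -0.84 and -1.02 in the iHAC2-iPS clones and -1.16, -0.24, -0.87 and -0.34 in the iHAC-free lines. The Y-linked Uty was not above background in any iHAC1-iPS clone or ES line (-7.43, -7.57, -7.65 and -7.83, and -7.58 and -7.86) and was above it in MEFs (-3.91), 20D17 (-3.40), all iHAC2-iPS clones (-3.65 to -3.10) and all iHAC-free lines (-4.06 to -3.18). Of 3 other Y-linked genes, Ddx3y was above background on every array, at -3.24 to -2.0 in iHAC1-iPS clones, -2.58 and -2.45 in ES lines, 0.40 to 1.53 in iHAC2-iPS clones and -0.98 to 0.13 in iHAC-free lines. Eif2s3y, also above background on every array, was at -2.98 to -1.62, at -2.20 and -1.69, at 2.13 to 2.67 and at -0.81 to 2.43 in the same groups. Kdm5d was above background on 7 of 16 arrays and lay at -6.97 to -5.75 in iHAC1-iPS clones, -3.83 to -1.87 in iHAC2-iPS clones and -6.53 to -3.89 in iHAC-free lines, so it did not set iHAC1-iPS clones apart from all iHAC-free lines. These genes were added after their values were seen. The iHAC1-iPS clones thus differed from the iHAC2-iPS and iHAC-free lines in Xist and Uty as well as in vector and session, and the part of this in the values of the 150 genes was not tested.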

How the data were processed

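RNA of 16 lines in 6 groups was measured on 1-colour Agilent arrays, 1 array each. The authors' Feature Extraction 10.7.1.1 (first session) or 10.7.3.1 (second session) gave background-subtracted intensity values with mm9 probe positions, and these deposited intensities were used here. On each array 54.2 to 65.8% of spots exceeded background clearly and no spot was saturated, and the small number of arrays limits the precision. The authors' deposited log2 value table matched the log2 signals used here with each probe centred, with slopes of 0.999 to 1.001 and correlations of at least 0.9993 over 19944 probes. No detail of how that table was centred was given in the sources used here.

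Values are log2 gProcessedSignal minus the 75th percentile of the array, spots of a probe averaged. To choose the genes all non-control spots were used, and for tests outlier spots were left out and probes well above background on at least 1 array were kept (31420). All 16 arrays entered 1 limma 3.58.1 fit (R 4.3.3; lmFit, eBayes) with 6 groups and no covariate, and a call required a Benjamini-Hochberg adjusted p under 0.05 over all probes and at least a 2-fold difference. Tables and figures were made with Python 3.11.15, pandas 2.3.3 and matplotlib 3.10.9. The fit was tested on simulated data with 200 changed probes. Arrays are separate clones or lines, and p-values measure the spread between them.

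The members, gene lists and marker lists were chosen with earlier results of these data known. Genes were named by rule: the 20 highest scores, 5 on either side of the limit, up to 4 members of each list, the extremes in iHAC2-iPS clones, in clone range and in distance from MEF, calls against 20D17, and the markers. Functional groups, and named genes beyond the rule, were chosen after values were seen. RefSeq (GRCm38.p6) named 128 of 150 genes, 110 by accession, 14 by symbol and 4 by synonym, and 121 of them were protein coding. Alternatives tried were normexp (offset 50), quantile normalization, the deposited table, outlier spots kept, other filters on dim probes, only the compared groups, slide or clone of origin as a block, and leaving out each array. The iHAC-free lines pair with the iHAC2-iPS clones by descent. The correlation of deviations from the group mean was -0.219 to 0.08 for pairs of one origin and -0.105 to 0.216 for other pairs. Results for some genes are not reported here.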

Additional observations from a re-analysis of the deposited data

Results flagged for a closer look

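Of 96 groups of 4 arrays checked over 31 genes, 4 held a single array far from the other 3, by a test of the gap relative to the range (Dixon), and chance marks about 1 in 20 such groups. For Eya2 in iHAC1-iPS clones the gap was 0.872 of the range, with 1-B at 0.73 and the others at -3.11 to -2.62. For Zfp560 in iHAC2-iPS clones it was 0.83, with 2-N at -1.09 and the others at -0.70 to -0.62. For Nfib in iHAC-free lines it was 0.86, with F-B1 at -1.07 and the others at -1.64 to -1.56. For Odz2 in iHAC-free lines it was 0.952, with F-C5 at -5.52 and the others at -6.99 to -6.92, none well above background.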

How the results depend on the processing

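The count of members called between iHAC2-iPS clones and ES lines (1) was 0 with normexp, with outlier spots kept or with only the compared groups, 2 with slide as a random block, and 0 to 9 with single arrays left out. Between iHAC2-iPS clones and 20D17 (1) it was 2 with quantile normalization or a strict filter, 7 with no filter, 0 with only the compared groups, 3 with slide as a random block, and 0 to 9 with arrays left out. Between iHAC2-iPS clones and iHAC-free lines (1) it was 1 to 6 with arrays left out. With clone of origin as a replicate block, the paired fit, 1 gene was called there as well, and the block changed no call. Between iHAC1-iPS and iHAC2-iPS clones (137) it was 96 to 140 over 16 alternatives, 125 to 140 with arrays left out. Of the 150 genes, 99 were chosen again with normexp, 78 with means in place of lowest and highest, and 111 to 145 with arrays left out. The count above all ES and iHAC-free arrays on every iHAC2-iPS clone (5) was 5 to 29 with arrays left out. With normexp the median difference from ES lines was 1.87 for MEFs and 1.37 for iHAC1-iPS clones (1.90 to 2.37 with arrays left out). For iHAC-free lines it was 0.03, against -0.18 with normexp, -0.07 with quantile normalization and -0.19 to 0.22 with arrays left out. The causes were not tested. Of 203 alternatives for 13 single genes, 11 lost the call and none reversed, 3 of them for Kctd1. Signals near background limit the difference for the 25 genes above background on no iHAC2-iPS array. Over 16 alternatives the lowest log2 iHAC1-iPS minus iHAC2-iPS difference was 1.95 for Arpp21, 1.84 for ENSMUST00000068704, 1.66 for Nedd9 and 1.65 for Odz2. Their fold bounds against iHAC2-iPS clones therefore hold for the main processing only.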
